A study of Mus musculus with 6 samples.

Results

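The genes described here build the machinery by which the proximal tubule of the kidney takes back filtered protein. They were chosen by name (Lrp2, Cubn, Amn, Dab2, Lrpap1, Ap2a1, Rab11a, Ocrl, Fcgrt and Myo6), and all 10 were found among the 13696 protein-coding genes listed in the kidney tables. The data are total RNA from mouse kidney at 24 months of age, from 3 samples with the genotype fat-1 knockin (fat-1 here) and 3 wild-type (WT) samples. The fat-1 gene of Caenorhabditis elegans encodes an enzyme, absent from mammals, that makes omega-3 fatty acids out of omega-6 ones. The labels give no promoter for the inserted gene and no sex, strain or feeding, and do not state whether each sample is a different animal; p-values therefore reflect only how much these samples vary, which may be technical. No level of the transgene was used here.

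Albumin, vitamin carrier proteins and other small proteins pass the glomerular filter and are caught at the brush border by megalin, the product of Lrp2, and by cubilin, the product of Cubn. Cubilin has no membrane anchor of its own and reaches the surface bound to amnionless, the product of Amn. The receptors enter clathrin-coated pits with the adaptors DAB2 and AP-2, release their cargo in acid endosomes and return to the surface through RAB11A recycling tubules, and loss of megalin, cubilin or OCRL function in humans causes protein to appear in the urine.

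Values are FPKM (fragments divided by the length of the transcript and by the mapped fragments of the library), summed over the listed transcripts of a gene. FPKM is scaled by length, and levels of different genes are set side by side here on that basis. Long and short transcripts still shifted differently between libraries, and the part of transcript length in such comparisons was not tested. Summed FPKM per library lay between 387488 and 421497 in fat-1 and between 391237 and 431081 in WT, and read depth is unknown. Library values are named by replicate, and replicate numbers do not pair the groups. WT replicate 1 stood apart in immune genes: 9 macrophage markers summed to between 144 and 272 FPKM in fat-1, against 1077 FPKM in WT replicate 1 and 120 and 152 FPKM in the other WT libraries. Proximal tubule markers of the first segments (S1 and S2), 12 genes, summed to between 4596 and 5672 FPKM in fat-1 and between 4133 and 4777 FPKM in WT, and none of them was at 0 in any library. In bulk kidney RNA, fewer cells of a type and less RNA per cell cannot be told apart.

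No member passed the test between fat-1 and WT. In limma, with p-values adjusted over 11698 tested genes, 0 of the 10 members had an adjusted p under 0.05, and 0.180% of all tested genes did. At an unadjusted p under 0.05 the count was 1 member, Fcgrt, against 9.97% of tested genes. Differences are in log2(FPKM + 1), with WT subtracted from fat-1. Their median was -0.04 over the members and 0.01 over all tested genes. For the 9 members other than Fcgrt, the groups overlapped, the adjusted p lay between 0.728 and 0.993, and the 95% intervals of the log2 difference lay within -0.53 and 0.68.

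**Figure D1:**
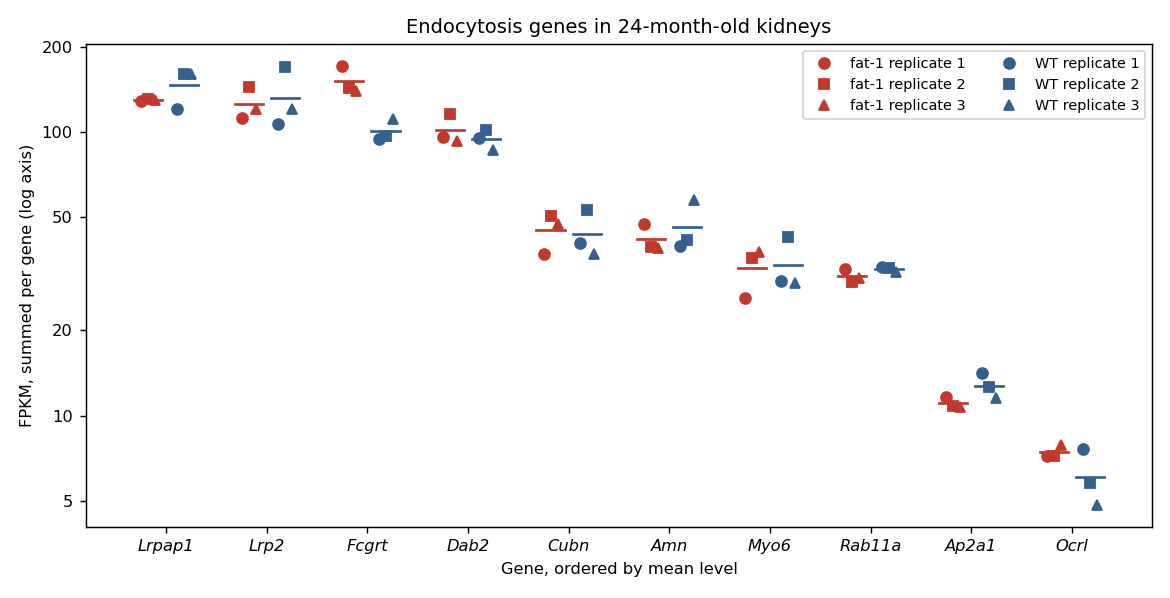
FPKM summed per gene (log axis) for the 10 endocytosis genes, ordered by mean level. Each point is 1 library, fat-1 left and WT right of each pair, and bars mark group means; only for Fcgrt do all 3 fat-1 points (139 to 171 FPKM) lie above all 3 WT points (94.8 to 111 FPKM).

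Megalin and cubilin RNA were abundant in both genotypes. Lrp2 (chromosome 2, 69424340 to 69586065, minus strand, mm10) measured 113, 144 and 121 FPKM in fat-1 replicates 1, 2 and 3, against 107, 170 and 120 FPKM in WT replicates 1, 2 and 3. The fat-1 values lay inside the WT range, and WT replicate 2 held the highest value. The log2 difference was -0.05 ± 0.20 (SE), with a 95% interval from -0.52 to 0.42, which corresponds to folds from 0.697 to 1.34. Transcript Lrp2-201, of 15460 bases and 79 exons, took between 95.2% and 97.2% of the gene's FPKM in every library.

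Cubn, the gene of the extracellular receptor cubilin (chromosome 2, 13276338 to 13491813, minus strand), measured 37.2, 50.6 and 47.4 FPKM in fat-1, against 40.6, 53.3 and 37.2 FPKM in WT. The groups overlapped almost fully (log2 difference 0.05 ± 0.18, SE; 95% interval -0.38 to 0.48). As for Lrp2, the highest library was WT replicate 2, and within fat-1 it was replicate 2. The Cubn to Lrp2 ratio of FPKM stayed narrow, at 0.330, 0.350 and 0.391 in fat-1, against 0.381, 0.314 and 0.309 in WT. A two-sided exact permutation test gave p = 0.5, and 3 against 3 libraries cannot give less than 0.1.

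The sequences upstream of both receptor genes are shown because the genes are co-receptors with like values across the libraries, and that of Fcgrt because it is the member whose groups separated. Each is the 250 bases before the RefSeq gene start, on GRCm38.p6, 5′ to 3′ on the gene's strand. Listed transcripts of Lrp2 and Fcgrt start further upstream, at 69586065 and 45103851, so the last bases of their windows lie inside those transcripts. They were searched on both strands for AGGTCA (reverse complement TGACCT), a half-site of many nuclear receptors, and since none held it no base is in capitals.
Cubn, chr2:13491877-13492126, minus strand: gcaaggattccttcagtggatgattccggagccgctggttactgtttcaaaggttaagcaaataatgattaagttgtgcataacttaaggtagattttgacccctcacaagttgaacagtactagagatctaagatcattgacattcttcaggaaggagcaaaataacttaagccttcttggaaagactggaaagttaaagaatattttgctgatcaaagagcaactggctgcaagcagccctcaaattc
Lrp2, chr2:69586030-69586279, minus strand: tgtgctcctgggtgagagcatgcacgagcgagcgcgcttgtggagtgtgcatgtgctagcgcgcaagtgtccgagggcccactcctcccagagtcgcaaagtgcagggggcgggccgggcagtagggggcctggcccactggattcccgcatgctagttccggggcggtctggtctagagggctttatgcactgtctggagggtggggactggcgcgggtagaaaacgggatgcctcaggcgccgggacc
Fcgrt, chr7:45103823-45104072, minus strand: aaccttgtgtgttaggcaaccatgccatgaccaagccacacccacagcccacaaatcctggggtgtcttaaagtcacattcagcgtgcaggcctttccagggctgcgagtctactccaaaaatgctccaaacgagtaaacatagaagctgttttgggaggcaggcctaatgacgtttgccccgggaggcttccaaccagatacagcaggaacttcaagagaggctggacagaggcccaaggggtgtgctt

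The receptor windows differed in composition, with 39.6% G and C for Cubn and 66.4% for Lrp2, and the Fcgrt window lay between them at 53.2%. The median over all windows was 52.4%. Among the 11 windows of the 10 members (Dab2 has 2 starts), 0 held AGGTCA, whereas 14.02% of 32851 windows of that length over all genes held it. The absence of these letters says nothing about any factor.

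Amnionless, which carries cubilin to the surface, did not follow the receptors from library to library. Amn (chromosome 12, 111271095 to 111276426, plus strand) measured 47.6, 39.3 and 39.1 FPKM in fat-1, against 39.7, 41.5 and 57.6 FPKM in WT. WT replicate 3 was the highest for Amn and shared the lowest level for Cubn. The Amn to Cubn ratio of FPKM was 1.28, 0.776 and 0.826 in fat-1, against 0.978, 0.779 and 1.55 in WT (two-sided exact permutation p = 0.6). Amn-201 has 1701 bases and Cubn-201 has 11262, and the part of transcript length in this ratio was not tested.

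Lrpap1 encodes the receptor-associated protein, a chaperone that keeps ligands off megalin in the endoplasmic reticulum. It had the highest mean level of the 10, at 129, 130 and 130 FPKM in fat-1, against 121, 161 and 160 FPKM in WT (chromosome 5, 35091501 to 35105766, minus strand). The 3 fat-1 libraries were nearly equal and lay inside the WT range (log2 difference -0.17 ± 0.14, SE; limma adjusted p = 0.827). The Lrpap1 to Lrp2 ratio was 1.15, 0.903 and 1.07 in fat-1, against 1.14, 0.946 and 1.33 in WT (two-sided exact permutation p = 0.5). Over the 4 ratios tested, the adjusted p was 0.6 for each.

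Fcgrt encodes the neonatal Fc receptor, which binds albumin and IgG in acid endosomes and returns them from lysosomal breakdown; proximal tubule cells, podocytes and endothelial cells are known to express it. It measured 171, 143 and 139 FPKM in fat-1, against 94.8, 97.1 and 111 FPKM in WT (chromosome 7, 45092990 to 45103851, minus strand). Every fat-1 library lay above every WT library, which 8.33% of tested genes also showed. The fat-1 mean of 151 ± 17.4 FPKM was 1.50 times the WT mean of 101 ± 8.82 FPKM (SD, n = 3 each). The log2 difference of 0.57 ± 0.13 (SE; 95% interval 0.26 to 0.89) had an unadjusted p of 0.00352 and did not pass after adjustment (limma adjusted p = 0.172).

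All 3 listed Fcgrt transcripts were higher in fat-1 by a similar amount, and their proportions held. Fcgrt-201 measured 90.6, 79.1 and 71.7 FPKM in fat-1, against 47.9, 53.7 and 59.5 FPKM in WT. It took between 50.5% and 55.4% of the gene in every library. In a limma fit of 17119 tested transcripts the log2 difference was 0.57 ± 0.14 (SE) for Fcgrt-201, 0.51 ± 0.19 for Fcgrt-203 and 0.61 ± 0.13 for Fcgrt-204. These 3 share exons and are not separate evidence. None passed (smallest adjusted p = 0.234), and 7.40% of tested transcripts had every fat-1 library above every WT library.

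Endothelial markers were higher in the same libraries as Fcgrt. All 10 endothelial markers examined had every fat-1 library above every WT library, and 1 of them, Plvap of the fenestral diaphragm, passed over all genes (log2 difference 1.25 ± 0.15, SE; limma adjusted p = 0.0496). The Plvap call was lost when any single library was left out (adjusted p from 0.0647 to 0.197) and held under 5 of 18 alternatives, with the direction kept in all 18. Their summed level was between 198 and 265 FPKM in fat-1 and between 102 and 125 FPKM in WT, and none was at 0. The 6 podocyte markers summed to between 91.5 and 106 FPKM in fat-1 and between 60.8 and 71.2 FPKM in WT. For 4 of them, as for the 10 endothelial markers, every fat-1 library lay above every WT library, an order shown by 8.33% of tested genes. Podxl held the largest part of that sum, at 46.3, 56.0 and 49.3 FPKM in fat-1, against 34.6, 29.0 and 30.6 FPKM in WT. Ptpro and Synpo overlapped, and the Synpo mean was lower in fat-1 (3.18 FPKM) than in WT (4.80 FPKM). Within fat-1 the order differed: Fcgrt was highest in replicate 1, where the endothelial sum was lowest. With each library set relative to its proximal tubule S1 and S2 markers, the Fcgrt difference was 0.49 (unadjusted p = 0.0861). The part of endothelial or podocyte RNA in the Fcgrt difference was not tested. B2m, which encodes the light chain of the neonatal Fc receptor and of MHC class I, measured 503, 417 and 701 FPKM in fat-1, against 2038, 247 and 329 FPKM in WT, with the highest value in the library rich in macrophage markers.

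**Figure D2:**
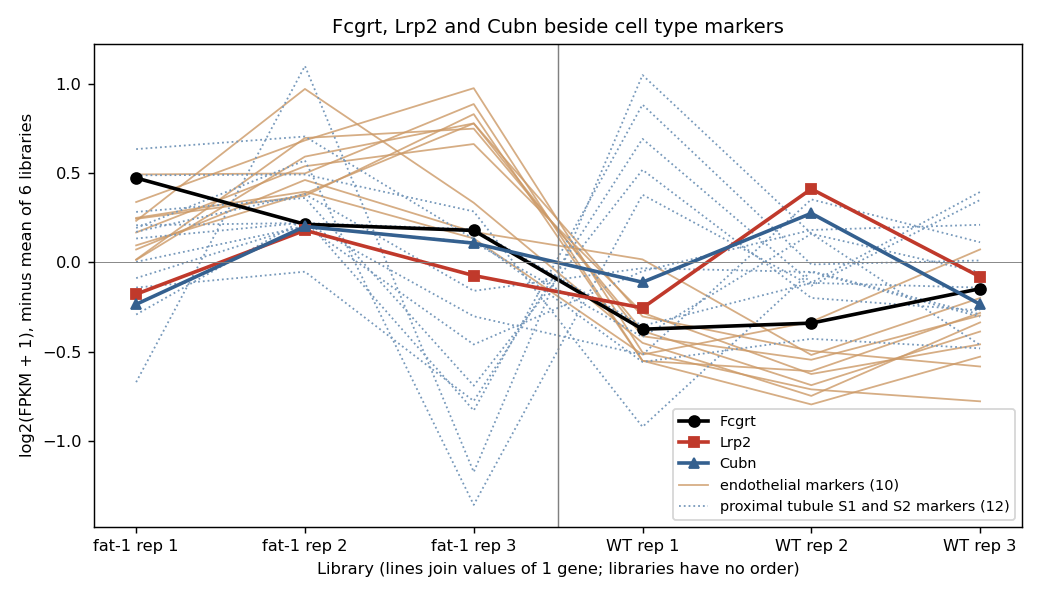
log2(FPKM + 1) of Fcgrt, Lrp2 and Cubn in each library, minus the gene's mean over the 6 libraries, with 10 endothelial markers (solid) and 12 proximal tubule S1 and S2 markers (dotted). Fcgrt and the endothelial markers lie higher in the 3 fat-1 libraries, while Lrp2 and Cubn are highest in WT replicate 2.

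The adaptor genes did not separate the genotypes. Dab2, whose product binds the megalin tail and links it to clathrin and to myosin VI (chromosome 15, 6299788 to 6440712, plus strand), measured 96.2, 116 and 93.2 FPKM in fat-1, against 95.6, 102 and 86.5 FPKM in WT. The groups overlapped (log2 difference 0.10 ± 0.13, SE; limma adjusted p = 0.896). The Dab2 to Lrp2 ratio was 0.855, 0.805 and 0.770 in fat-1, against 0.897, 0.601 and 0.718 in WT (two-sided exact permutation p = 0.5). Ap2a1, an alpha subunit of the AP-2 adaptor (chromosome 7, 44900374 to 44929490, minus strand), measured 11.7, 10.8 and 10.7 FPKM in fat-1, against 14.1, 12.6 and 11.6 FPKM in WT. The ranges overlapped only through fat-1 replicate 1 and WT replicate 3 (log2 difference -0.19 ± 0.12, SE). Ap2a1 shares 720 exon bases with Fuz on the other strand, and no source used here gives the strand setting of the counting, so reads of the pair cannot be told apart there. Other members share fewer exon bases: Cubn 368 with Gm13270 and Dab2 211 with Gm18888 on the other strand, and Rab11a 107 with Gm47308 on the same strand.

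**Figure D3:**
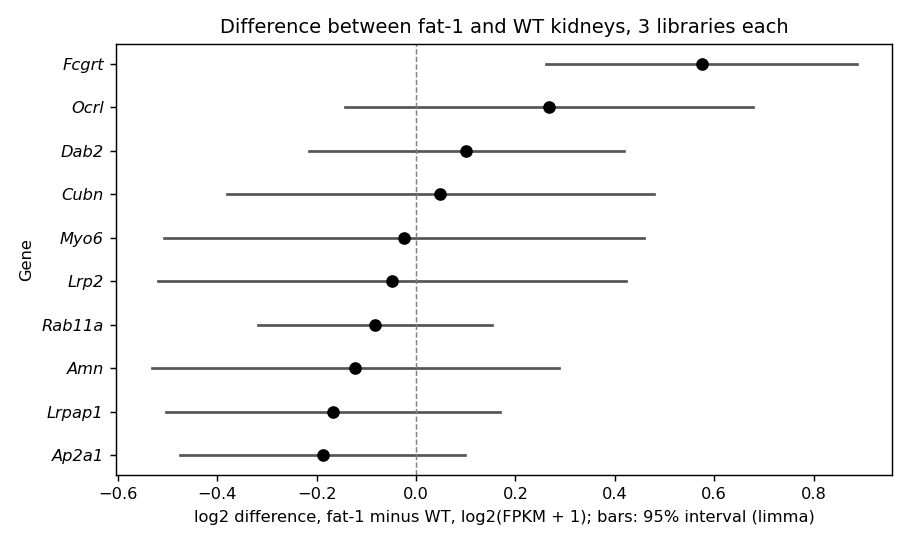
Difference between fat-1 and WT in log2(FPKM + 1) for the 10 endocytosis genes, with 95% intervals from limma (3 libraries per group). The interval of Fcgrt runs from 0.26 to 0.89 and the other 9 include 0.

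The genes of transport after uptake also had overlapping groups. Rab11a, the small GTPase of recycling endosomes (chromosome 9, 64715299 to 64737758, minus strand), varied least, with 32.8, 29.7 and 30.5 FPKM in fat-1, against 33.4, 33.2 and 32.1 FPKM in WT. Its 95% interval of the log2 difference, -0.32 to 0.15, was the narrowest of the 10. Ocrl encodes the inositol phosphatase mutated in Lowe syndrome and had the lowest level of the 10, at 7.23, 7.18 and 7.91 FPKM in fat-1, against 7.65, 5.80 and 4.85 FPKM in WT (chromosome X, 47912387 to 47965868, plus strand). WT replicate 1 lay within the fat-1 range and the other WT libraries below it (log2 difference 0.27 ± 0.17, SE; adjusted p = 0.733). Ocrl-202, a model of 5 exons at the 3′ end with 546 coding bases, took between 59.3% and 84.2% of the gene's FPKM. The FPKM assigned to the longer models was therefore lower than the sum. How far this reflects the RNA, or the division of shared reads between models, was not tested.

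Myo6 encodes myosin VI, the motor that walks toward the minus end of actin and moves endocytic vesicles away from the brush border (chromosome 9, 80165031 to 80311729, plus strand). Its summed level was 26.0, 35.8 and 37.9 FPKM in fat-1, against 29.7, 42.5 and 29.4 FPKM in WT. The groups overlapped, and the log2 difference was -0.02 ± 0.20 (SE; limma adjusted p = 0.993).

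Beneath the gene sums, single Myo6 and Dab2 transcripts varied widely. Myo6-202 was at 0.142, 0.356 and 0.180 FPKM in fat-1, against 21.7 and 31.9 FPKM in WT replicates 1 and 2 and 0 in WT replicate 3. Myo6-203 was the mirror image, at 16.1, 24.5 and 25.3 FPKM in fat-1, against 0.0148, 0.0348 and 23.6 FPKM in WT. In each library one of these models held nearly all the FPKM of the pair, and WT replicate 3 sided with fat-1. Myo6-203 did not pass (log2 difference 2.93 ± 1.27, SE; limma adjusted p = 0.634 over transcripts); without WT replicate 3 it did (4.46, adjusted p = 0.0473). Myo6-202, low in 4 of the 6 libraries, was not tested under the filter of at least 1 FPKM in at least 3 libraries.

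The models Myo6-202 and Myo6-203 share 7624 bases and differ by one coding exon of 39 bases and by 8 bases at the 5′ end. The exon also lies in the rare model Myo6-204 and in Myo6-212, which measured 9.71, 10.2 and 9.69 FPKM in fat-1, against 6.36, 10.6 and 5.83 FPKM in WT. Transcripts holding the exon took 37.9%, 29.4% and 33.3% of Myo6 FPKM in fat-1, against 95.8%, 99.9% and 19.8% in WT. How far this reflects the RNA, or the division of shared reads between models, was not tested, since reads across the exon were not used here.

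The alternative exons that set these classes are shown in capitals, with 12 flanking bases of the transcript in lower case (mm10, plus strand, from GENCODE M21 transcripts). For the long Dab2 exon only the first 60 of its 654 bases and the bases before it are printed.
Myo6 exon, chr9:80296643-80296681: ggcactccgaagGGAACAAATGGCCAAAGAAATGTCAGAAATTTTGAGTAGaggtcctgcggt
Dab2 short exon, chr15:6424635-6424697: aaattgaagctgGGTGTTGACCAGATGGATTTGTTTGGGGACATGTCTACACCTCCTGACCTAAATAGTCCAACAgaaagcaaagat
Dab2 long exon, chr15:6429296-6429949: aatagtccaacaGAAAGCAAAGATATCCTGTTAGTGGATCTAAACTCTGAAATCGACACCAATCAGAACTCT

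The Dab2 exons have 63 and 654 bases, and both are coding and a multiple of 3 bases long, so that a transcript with or without either stays in frame. The long exon distinguishes the long form of the DAB2 protein, which binds clathrin and AP-2, from a shorter form. Transcripts with the 654-base exon (3 of the 11 listed) summed to 57.9, 62.1 and 19.3 FPKM in fat-1, against 56.6, 52.0 and 7.31 FPKM in WT. These are 60.1%, 53.4% and 20.7% of Dab2 in fat-1, against 59.2%, 51.0% and 8.46% in WT. In replicate 3 of both genotypes the FPKM assigned to models with this exon was low. How far the Dab2 shares reflect the RNA, or the division of shared reads between models, was not tested. Reads across the exons were not used here. The 5 transcripts with the 63-base exon held 37.7%, 64.4% and 81.4% of Dab2 in fat-1, against 39.1%, 68.8% and 83.6% in WT, so that here replicate 1 of both genotypes was low. Of the 8 models without the 654-base exon, 3 skip it and run past it. These 3 held 14.1%, 13.6% and 20.9% of Dab2 in fat-1, against 14.5%, 14.2% and 33.0% in WT. The other 5 end before the 654-base exon and cannot show it.

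**Figure D4:**
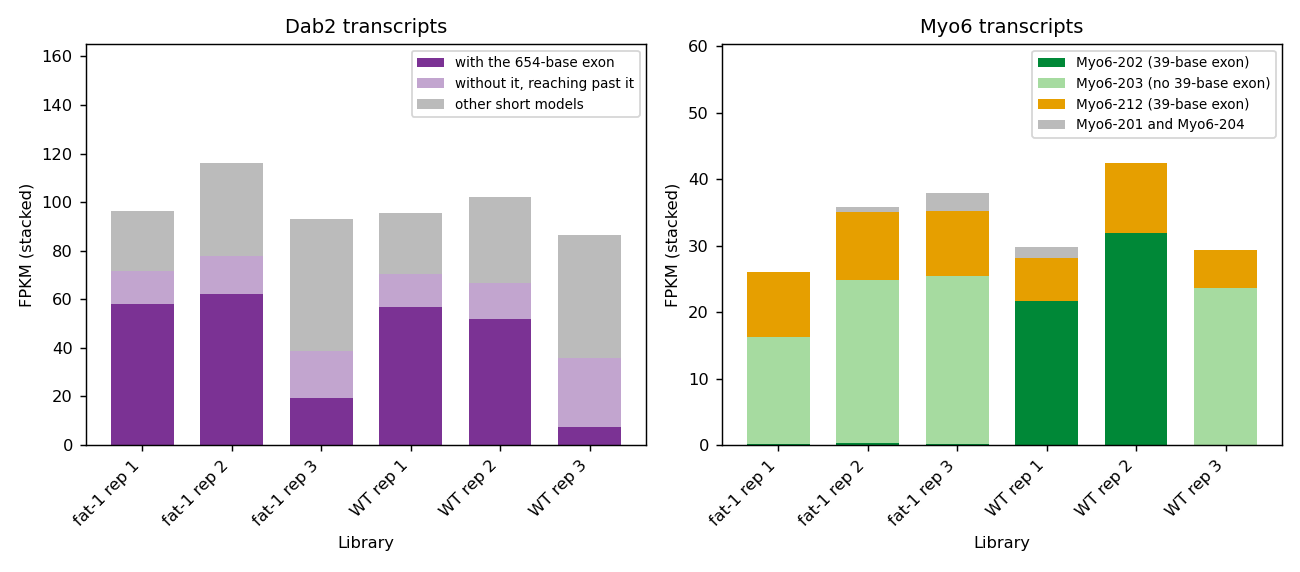
FPKM of Dab2 (left) and Myo6 (right) in each library, stacked by transcript class. Dab2 transcripts with the 654-base exon are lowest in fat-1 replicate 3 (19.3 FPKM) and WT replicate 3 (7.31 FPKM), and the Myo6-202 and Myo6-203 models replace each other between libraries while the sum stays between 26.0 and 42.5 FPKM.

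Across all 36 listed transcripts of the members, 26 were tested and 0 passed, with 0.0584% of all tested transcripts called. At an unadjusted p under 0.05 there were 3, all of Fcgrt, against 8.13% of tested transcripts. A minor Lrp2 model, Lrp2-202, was the only tested one with every fat-1 library below every WT library, at 0.913, 1.33 and 1.65 FPKM in fat-1, against 1.87, 1.68 and 2.11 FPKM in WT; 6.60% of tested transcripts showed that order.

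By mean level over the 6 libraries the members fell into 4 steps. Lrpap1 (139 FPKM), Lrp2 (129 FPKM), Fcgrt (126 FPKM) and Dab2 (98.3 FPKM) formed the top, and each overlapped its neighbour in range. Cubn (44.4 FPKM), Amn (44.1 FPKM), Myo6 (33.6 FPKM) and Rab11a (32.0 FPKM) came next, again with overlapping neighbours and with no library of Cubn, at most 53.3 FPKM, reaching the lowest Dab2 value of 86.5 FPKM. Ap2a1 (11.9 FPKM) and Ocrl (6.77 FPKM) stood lower, each clear of its neighbours.

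The genes whose values across the libraries were most like those of Lrp2 were Macrod2, Atrnl1 and Ubxn2a. The measure was the root mean square distance between log2(FPKM + 1) values centred on the mean of the 6 libraries, over 5370 genes with a mean of at least 10 FPKM, and a small distance among so many genes is a description only. The distances were 0.0686, 0.0830 and 0.0835, and the median over these genes was 0.315. Of the members, Cubn ranked 30 at 0.129 and Myo6 ranked 54 at 0.142, while Amn ranked 3130 and Fcgrt 4249.

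None of the other genes of the pathway passed either. Of 80 partner genes in 4 lists, 76 were tested and 0 passed in limma in either direction. At an unadjusted p under 0.05, 5 were higher in fat-1 and 2 lower, whereas 5.80% of all tested genes were higher and 4.16% lower. In the clathrin and AP-2 list of 21 genes, all tested, the median log2 difference was 0.11, and 1 gene had an unadjusted p under 0.05. Cltb, a clathrin light chain, measured 59.7, 52.0 and 49.9 FPKM in fat-1, against 33.4, 38.3 and 48.4 FPKM in WT (unadjusted p = 0.0315, adjusted p = 0.434). The next smallest p-values were those of Aak1, the kinase of the AP-2 mu subunit (0.50), the adaptor gene Numb (1.03) and Ap2b1 (0.25), given as log2 differences, with adjusted p-values of 0.510, 0.570 and 0.616. Numb measured 14.3, 16.5 and 17.9 FPKM in fat-1, against 2.71, 12.8 and 10.8 FPKM in WT, and without the low WT replicate 1 its log2 difference was 0.43.

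Endosome sorting genes, 32 tested, had a median log2 difference of -0.02, with 1 unadjusted p under 0.05. Ehd3, of an ATPase family that shapes recycling endosomes and known in mouse kidney from glomerular endothelium, measured 8.62, 13.4 and 10.1 FPKM in fat-1, against 5.41, 5.88 and 6.48 FPKM in WT (log2 difference 0.74 ± 0.18, SE; limma adjusted p = 0.189). Its relative Ehd1, at 32.2, 31.7 and 27.7 FPKM in fat-1 and 34.7, 36.3 and 39.3 FPKM in WT, lay the other way (-0.26 ± 0.11, SE; adjusted p = 0.515). Rab7, of late endosomes, and Clcn5, the endosomal chloride-proton exchanger lost in Dent disease, had log2 differences of -0.31 and -0.25 and adjusted p-values of 0.526 and 0.633. For Ehd1, Rab7 and Clcn5 every fat-1 library lay below every WT library, an order shown by 6.86% of tested genes.

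Related receptors and partners, 15 tested, had a median log2 difference of 0.07, with 1 higher and 1 lower at an unadjusted p under 0.05. Scarb2, a lysosomal membrane protein, measured 23.5, 19.3 and 24.4 FPKM in fat-1, against 16.1, 12.6 and 10.8 FPKM in WT (log2 difference 0.73 ± 0.17, SE; limma adjusted p = 0.176). The megalin relatives Lrp1 and Lrp4 had log2 differences of 0.45 and 0.34, with overlapping groups (adjusted p = 0.714 and 0.751).

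Among 8 tested transcription factors of the proximal tubule the median log2 difference was -0.07, with 2 higher and 1 lower at an unadjusted p under 0.05. Ppara, the fatty acid-sensing nuclear receptor, measured 9.01, 22.1 and 15.8 FPKM in fat-1, against 8.56, 5.47 and 3.27 FPKM in WT (log2 difference 1.29 ± 0.39, SE; limma adjusted p = 0.314). Fat-1 replicate 1 lay only just above WT replicate 1. Hnf4g had a log2 difference of 0.66 (adjusted p = 0.378) and Maf one of -0.37 (adjusted p = 0.657).

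**Figure D5:**
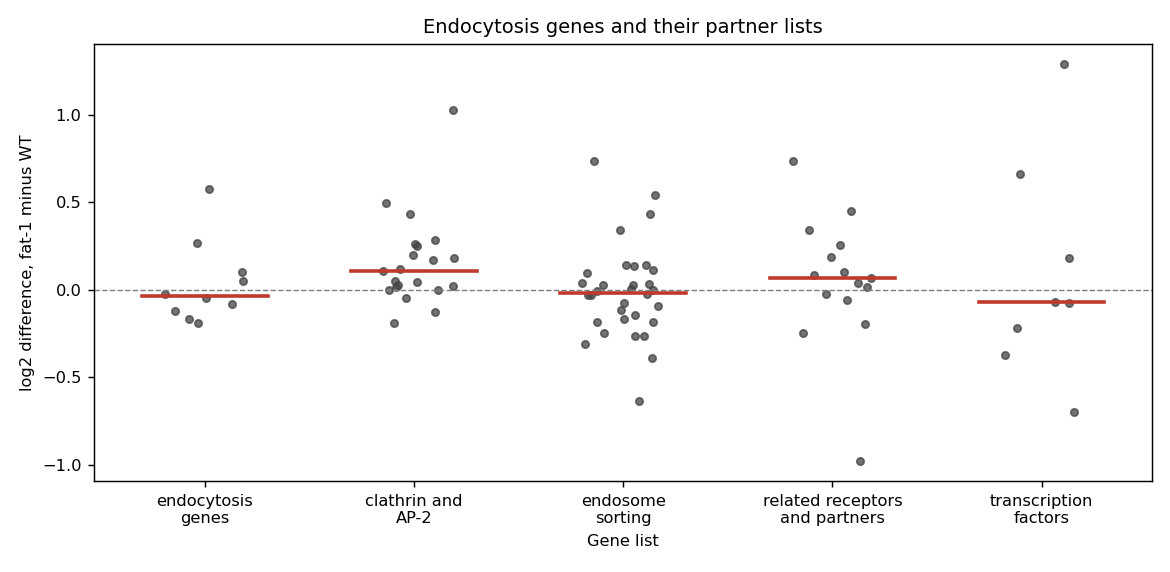
log2 difference, fat-1 minus WT, of each tested gene in the endocytosis genes and in 4 partner lists; each point is 1 gene and bars are list medians (-0.04, 0.11, -0.02, 0.07 and -0.07 from left to right). No point passed an adjusted p of 0.05.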

How the data were processed

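Total kidney RNA from 3 fat-1 and 3 WT samples was analysed from 6 tables. The authors' deposited values are FPKM per transcript, per the file headers, for 27486 protein-coding transcripts, each at 0.5 FPKM or more in at least 1 library, so sums omit lower transcripts. The build mm10 and the tools DESeq2 1.20.0, HISAT2 2.0.5 and featureCounts 1.5.0-p3 are named per the submitters' processing notes, without their roles; which of them gave FPKM was not stated there. Depth is unknown, so no counting intervals are given.

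FPKM was summed per gene identifier (13696 genes). Symbols turned into dates on 64 lines were restored. Genes, and separately transcripts, reaching 1 FPKM in 3 or more libraries entered limma 3.58.1 (R 4.3.3) on log2(FPKM + 1), with trend and robust estimation, no covariates and no rescaling. This scale understates changes of low genes. P-values were adjusted by Benjamini-Hochberg over all tested features, threshold 0.05. Ratios were tested by exact permutation (Python 3.11.15). Exons came from GENCODE M21 and upstream sequences from RefSeq.

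Members, lists and tests were chosen with earlier results of these data known. Named were all members, up to 4 genes with the smallest p per partner list (2 of these are not reported here), and the 3 genes most like Lrp2; B2m, Plvap and the transcripts were chosen after their values were seen. Alternatives covered scaling, filters, pseudocounts, variance estimation and left-out libraries.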

Additional observations from a re-analysis of the deposited data

How the results depend on the processing

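Limma called 0 of the 10 endocytosis genes and 0 partner genes, both in the fit reported and under all 18 alternatives. In the fit reported, 1 of the 10 members and 7 of the 76 tested partners had an unadjusted p under 0.05. Of all tested genes, 9.97% did. Fcgrt kept a positive log2 difference in all 18, from 0.48 (without fat-1 replicate 1) to 0.64 (without WT replicate 3), with adjusted p-values from 0.0908 to 1.00. Its unadjusted p stayed under 0.05 in 17 and was 0.0861 relative to proximal tubule markers. Without WT replicate 1, Lrpap1 had a log2 difference of -0.30 (limma unadjusted p = 0.0374, adjusted p = 0.323). In the same fit Ocrl had one of 0.42 (unadjusted p = 0.0307, adjusted p = 0.302). For both genes this was the only alternative with an unadjusted p under 0.05. Members with differences near 0 changed sign: with 1 library left out, or WT replicate 1 and fat-1 replicate 3 left out together, Lrp2 ranged from -0.19 to 0.14, Cubn from -0.0569 to 0.20, Amn from -0.22 to 0.0426 and Myo6 from -0.21 to 0.15. Cubn was -0.0395 relative to proximal tubule markers and -0.0368 with that pair left out. Member transcripts called numbered 0 to 1 with single libraries left out (Myo6-203 without WT replicate 3) and 0 under the other alternatives.

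The number of all genes called, 21, was 45 with sums set equal, 33 with sums without mitochondrially encoded genes set equal, 34 with quantile normalization, 8 with median-of-ratios scaling and 102 relative to proximal tubule markers. It was 4 with no filter, 7 with a pseudocount of 0.01, 3 without the trend and 0 with the pair left out. With single libraries left out it ranged from 0 (without fat-1 replicate 1, fat-1 replicate 3 or WT replicate 3) to 26 (without WT replicate 1), with 1 without fat-1 replicate 2 or WT replicate 2. The cause was not tested. Differences in log2 ratios with single libraries left out ranged from 0.03 to 0.20 for Cubn to Lrp2, -0.40 to 0.10 for Amn to Cubn, -0.24 to 0.00 for Lrpap1 to Lrp2 and 0.01 to 0.30 for Dab2 to Lrp2. No paired analysis was possible because the labels give the groups no shared replicate numbers.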

Other observations

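Late proximal tubule and injury genes varied widely between libraries, with overlapping groups. The 8 S3 markers summed to between 348 and 670 FPKM in fat-1 and between 486 and 1071 FPKM in WT. Their median log2 difference was -0.71, with 6 below 0 and 2 above. None passed in limma (smallest adjusted p = 0.463). The injury marker Havcr1, a phosphatidylserine receptor induced in damaged proximal tubule, measured 67.7, 3.98 and 13.9 FPKM in fat-1, against 17.5, 23.5 and 13.7 FPKM in WT. Fat-1 replicate 1, highest for Havcr1, had the lowest Cubn (shared with WT replicate 3) and Myo6 values of its group. The glucose transporter gene Slc5a2 of the first segments measured 88.1, 115 and 29.5 FPKM in fat-1, against 100, 70.3 and 98.4 FPKM in WT, so fat-1 replicate 3 was lowest while its Cubn was second in its group.

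Long transcripts differed by library. The 472 tested genes with a leading transcript of at least 8000 bases had a median centred log2 value of -0.15, 0.01 and 0.18 in fat-1, against 0.12, 0.03 and -0.19 in WT, and the median log2 difference between the genotypes was 0.03. Lrp2 and Cubn have such transcripts. Cubn was lowest, at 37.2 FPKM, in fat-1 replicate 1 and in WT replicate 3, the libraries with the lowest medians for long transcripts. Myo6, whose main transcripts are slightly shorter, was also lowest in these at 26.0 and 29.4 FPKM. Lrp2, the longest, was instead lowest in WT replicate 1 at 107 FPKM, where that median was 0.12. Lrp2 measured 113 FPKM in fat-1 replicate 1, the lowest of its group, and 120 FPKM in WT replicate 3. Both receptor genes were highest in WT replicate 2. The 3338 tested genes with a leading transcript under 2000 bases had medians of 0.10, -0.11 and -0.0004 in fat-1, against 0.01, -0.07 and 0.08 in WT. Amn, with a transcript of 1701 bases, was highest in WT replicate 3 and, within fat-1, in replicate 1. The part of transcript length in these values was not tested.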
